A study of Mus musculus with 6 samples.

Results

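The Notch receptors (Notch1, Notch2, Notch3 and Notch4), their ligands (Dll1, Dll3, Dll4, Jag1 and Jag2) and the coactivator Maml1 were described in DNA methylation data of mouse kidney mesangial cells. These 10 genes were chosen by name out of 22372 protein-coding genes of the GENCODE vM1 annotation of mm9, without use of their values. Notch1 and Maml1 are also on the study's own list of genes with changed methylation in these samples, so their place among the 10 is not independent of the data. A peak was counted at a gene when its summit lay in the gene or within 2 kb of either end. Overlapping peaks (1 bp or more) of different samples formed a region. The 10 genes held 69 of the 170444 regions of the series.

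Primary mesangial cells, which support and contract around the capillary loops of the glomerulus, were grown in high glucose (25.5 mM) with 20% foetal bovine serum and used at passages 3 to 6. There were 3 control samples and 3 samples given 10 ng/ml TGF-β1, a profibrotic cytokine, over 72 h, and no sample was grown without the high glucose. Methylated DNA fragments were enriched with an antibody and sequenced (MeDIP-seq), and each sample has its own list of peaks. The lists carry no expression values, so the labelled cell type was not checked against marker genes. Each TGF-β1-treated sample had more reads (12634300 to 13291419) than each control sample (9407103 to 11494356), so for peak numbers and for pileup, the number of extended reads over a summit, sequencing depth and treatment cannot be told apart. The lists held 81473 to 100449 peaks per control sample and 100379 to 105520 per TGF-β1 sample. Nothing in the labels says that replicates came from separate cultures, so p-values measure only the spread between these samples, which may be technical.

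Notch receptors are transmembrane proteins that are activated by Delta-like and Jagged ligands on neighbouring cells. Ligand binding allows ADAM proteases and then the γ-secretase complex to release the intracellular domain, which binds the DNA-binding protein Rbpj together with a Mastermind-like coactivator such as Maml1 and switches on Hes and Hey genes. In the kidney the pathway is known for its part in nephron patterning and in glomerular disease and fibrosis. Methylation of CpG sites is known to accompany silencing when it lies at a promoter, and is also common within the bodies of active genes.

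Sequences of 300 bases around the highest summit are shown for 5 regions on which the results below turn. They were read from NCBIM37, the assembly of mm9, along the transcribed strand of the gene, 5′ to 3′, and capitals mark each CpG, the site at which DNA is methylated. The first lie ahead of the RefSeq starts of Notch1 and Notch3 and are the peaks closest to any promoter of the 10 genes. The Notch1 sequence is from the minus strand of chr2:26359815-26360114 and holds 18 CpG, and that of Notch3 is from the minus strand of chr17:32304289-32304588 and holds 12 CpG.
Notch1 region ahead of the start: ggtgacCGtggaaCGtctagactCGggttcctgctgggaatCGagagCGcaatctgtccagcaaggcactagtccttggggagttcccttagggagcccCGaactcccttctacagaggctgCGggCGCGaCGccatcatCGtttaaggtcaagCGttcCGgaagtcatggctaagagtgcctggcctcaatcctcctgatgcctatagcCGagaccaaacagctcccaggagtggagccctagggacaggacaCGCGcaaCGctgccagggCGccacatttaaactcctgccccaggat
Notch3 region ahead of the start: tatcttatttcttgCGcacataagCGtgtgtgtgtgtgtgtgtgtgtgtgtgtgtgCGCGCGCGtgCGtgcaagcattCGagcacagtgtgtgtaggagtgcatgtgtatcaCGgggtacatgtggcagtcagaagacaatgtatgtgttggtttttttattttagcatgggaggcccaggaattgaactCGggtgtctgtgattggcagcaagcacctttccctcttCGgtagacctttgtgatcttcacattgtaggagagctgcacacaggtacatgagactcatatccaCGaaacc

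The next sequences are from the plus strand of Notch2 introns 2 and 5 (chr3:97872648-97872947 and chr3:97889020-97889319), where the limma p before adjustment was smallest. They hold 7 and 10 CpG. The intron 2 sequence is a tandem repeat and matched itself at 97.2% of bases when shifted by 82 bases. The best such match between shifts of 20 and 100 bases was 31.9% to 37.9% for the other 12 regions called in all 6 samples.
Notch2 intron 2: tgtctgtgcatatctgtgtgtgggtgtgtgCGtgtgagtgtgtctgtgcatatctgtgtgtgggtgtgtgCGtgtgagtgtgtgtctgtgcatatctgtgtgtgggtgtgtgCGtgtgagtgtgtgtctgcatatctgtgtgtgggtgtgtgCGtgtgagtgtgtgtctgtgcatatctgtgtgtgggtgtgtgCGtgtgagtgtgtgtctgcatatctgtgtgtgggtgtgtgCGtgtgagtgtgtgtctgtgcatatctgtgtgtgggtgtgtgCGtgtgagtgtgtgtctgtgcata
Notch2 intron 5: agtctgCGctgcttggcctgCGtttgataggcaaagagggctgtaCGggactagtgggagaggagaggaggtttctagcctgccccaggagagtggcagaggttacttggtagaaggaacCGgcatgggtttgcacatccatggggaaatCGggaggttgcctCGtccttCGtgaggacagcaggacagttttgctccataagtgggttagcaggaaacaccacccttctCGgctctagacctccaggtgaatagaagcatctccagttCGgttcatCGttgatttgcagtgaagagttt

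The last is from the minus strand of Notch3 intron 2 (chr17:32298621-32298920, 6 CpG), where the pileup of each TGF-β1-treated sample lay above that of each control sample.
Notch3 intron 2: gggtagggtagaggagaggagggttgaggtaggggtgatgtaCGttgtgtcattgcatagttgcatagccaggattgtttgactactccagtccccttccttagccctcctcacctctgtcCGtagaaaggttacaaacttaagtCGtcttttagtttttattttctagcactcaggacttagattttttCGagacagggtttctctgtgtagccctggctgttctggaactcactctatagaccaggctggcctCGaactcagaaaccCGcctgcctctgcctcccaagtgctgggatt

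Among the 78 pairs of the 13 regions called in all 6 samples, compared on both strands, the longest shared run was 31 bases of alternating g and t, in Notch2 intron 5 (the region 77072 bp from the gene start) and the Notch3 region ahead of the start. Searched on both strands, it was in 1.82% of 41502 windows of 300 bases around regions called in all 6 samples of the series. No repeat annotation was used here.

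Peaks at the 10 genes summed to 25, 33 and 36 in control replicates 1, 2 and 3 and to 34, 37 and 40 in the TGF-β1 replicates of the same numbers. Averages were 31.3 ± 5.69 (SD, n = 3) without and 37 ± 3 (SD, n = 3) with TGF-β1. This difference of 5.67 peaks is about as large as the control SD, and control replicate 3 lay above TGF-β1 replicate 1. Without control replicate 1, the difference was 2.5 peaks, and with peaks of at least 5-fold enrichment it was 1.67. Per 1000000 reads the order of the means turned, with 3.02 ± 0.551 peaks without and 2.87 ± 0.179 with TGF-β1. The 10 genes made up 0.0344% ± 0.00319 of a control sample's peaks and 0.0361% ± 0.00233 of a TGF-β1 sample's peaks.

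Control and TGF-β1-treated samples overlapped in the number of peaks at each of the 10 genes. The mean was higher with TGF-β1 for 7 genes, lower for Dll3 and Dll4 and equal for Maml1, while it was higher for 55.6% and lower for 22.0% of all protein-coding genes with a peak. Exact two-sided permutation tests of single genes gave p from 0.4 to 1, and a p below 0.1 cannot be reached with 3 samples per group. Among all 16686 protein-coding genes with a peak, each TGF-β1-treated sample lay above each control sample for 3.87% and below for 0.348%. After division by reads these shares were 1.77% and 15.7%, and the groups of the 10 genes still overlapped. The median difference in peaks was 0.667 over the 10 genes and 0.333 over all genes with a peak.

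**Figure D1:**
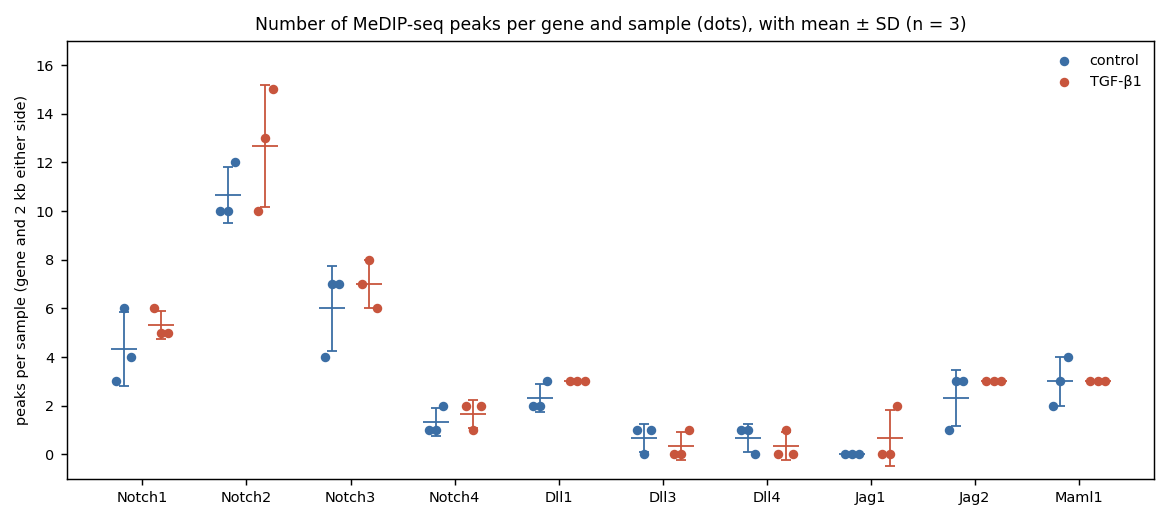
Number of MeDIP-seq peaks at each of the 10 genes (gene and 2 kb either side), one dot per sample, with the mean as a bar and the SD as whiskers (n = 3 per group). Notch2 has the most peaks, 10 to 15 per sample, Jag1 has peaks in TGF-β1 replicate 3 alone, and blue and red dots overlap at each gene.

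Among the receptors, Notch2 had the most peaks and Notch4 the fewest. Notch1 (chr2:26313423-26372183, minus strand) had 3, 6 and 4 peaks in the control replicates and 6, 5 and 5 in the TGF-β1 replicates, with 0.770 peaks per sample and 10 kb of window. Notch2 (chr3:97817461-97954290, plus strand) had 10, 10 and 12 without and 10, 13 and 15 with TGF-β1, or 0.828 per 10 kb. Its larger number thus went with its larger size, and its density was near that of Notch1. Notch3 (chr17:32257765-32303825, minus strand), a receptor known from vascular smooth muscle and pericytes, had 4, 7 and 7 peaks in control and 7, 8 and 6 with TGF-β1, or 1.30 per 10 kb. Notch4 (chr17:34701213-34725448, plus strand), a receptor known mainly from endothelium, had 1, 1 and 2 peaks in control and 2, 1 and 2 with TGF-β1, or 0.531 per 10 kb. The median density over all protein-coding genes with a peak was 0.481 per 10 kb.

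The ligands ranged from nearly free of peaks to the densest of the 10 genes. Dll1 (chr17:15504318-15513836, minus strand) had 2, 2 and 3 peaks in control and 3 in each TGF-β1-treated sample, which was 1.97 per 10 kb and the highest density of the 10 genes. Jag2 (chr12:114146801-114167706, minus strand) had 1, 3 and 3 in control and 3 in each TGF-β1-treated sample, or 1.07 per 10 kb. Dll3 (chr7:29076673-29087257, minus strand), a ligand that acts within its own cell and does not activate receptors on neighbours, had a peak in control replicates 1 and 3 and TGF-β1 replicate 3. Dll4 (chr2:119151520-119161698, plus strand), a ligand known from the growing endothelium, had a peak in control replicates 1 and 2 and TGF-β1 replicate 2. Jag1 (chr2:136907192-136942380, minus strand) had 2 peaks in TGF-β1 replicate 3 and none in the other samples. A missing peak means that the threshold was not passed in that sample, not that methylation was absent.

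Maml1 (chr11:50069136-50105838, minus strand) had 2, 3 and 4 peaks in control and 3 in each TGF-β1-treated sample, or 0.737 per 10 kb. The mean was 3 in both groups.

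**Figure D2:**
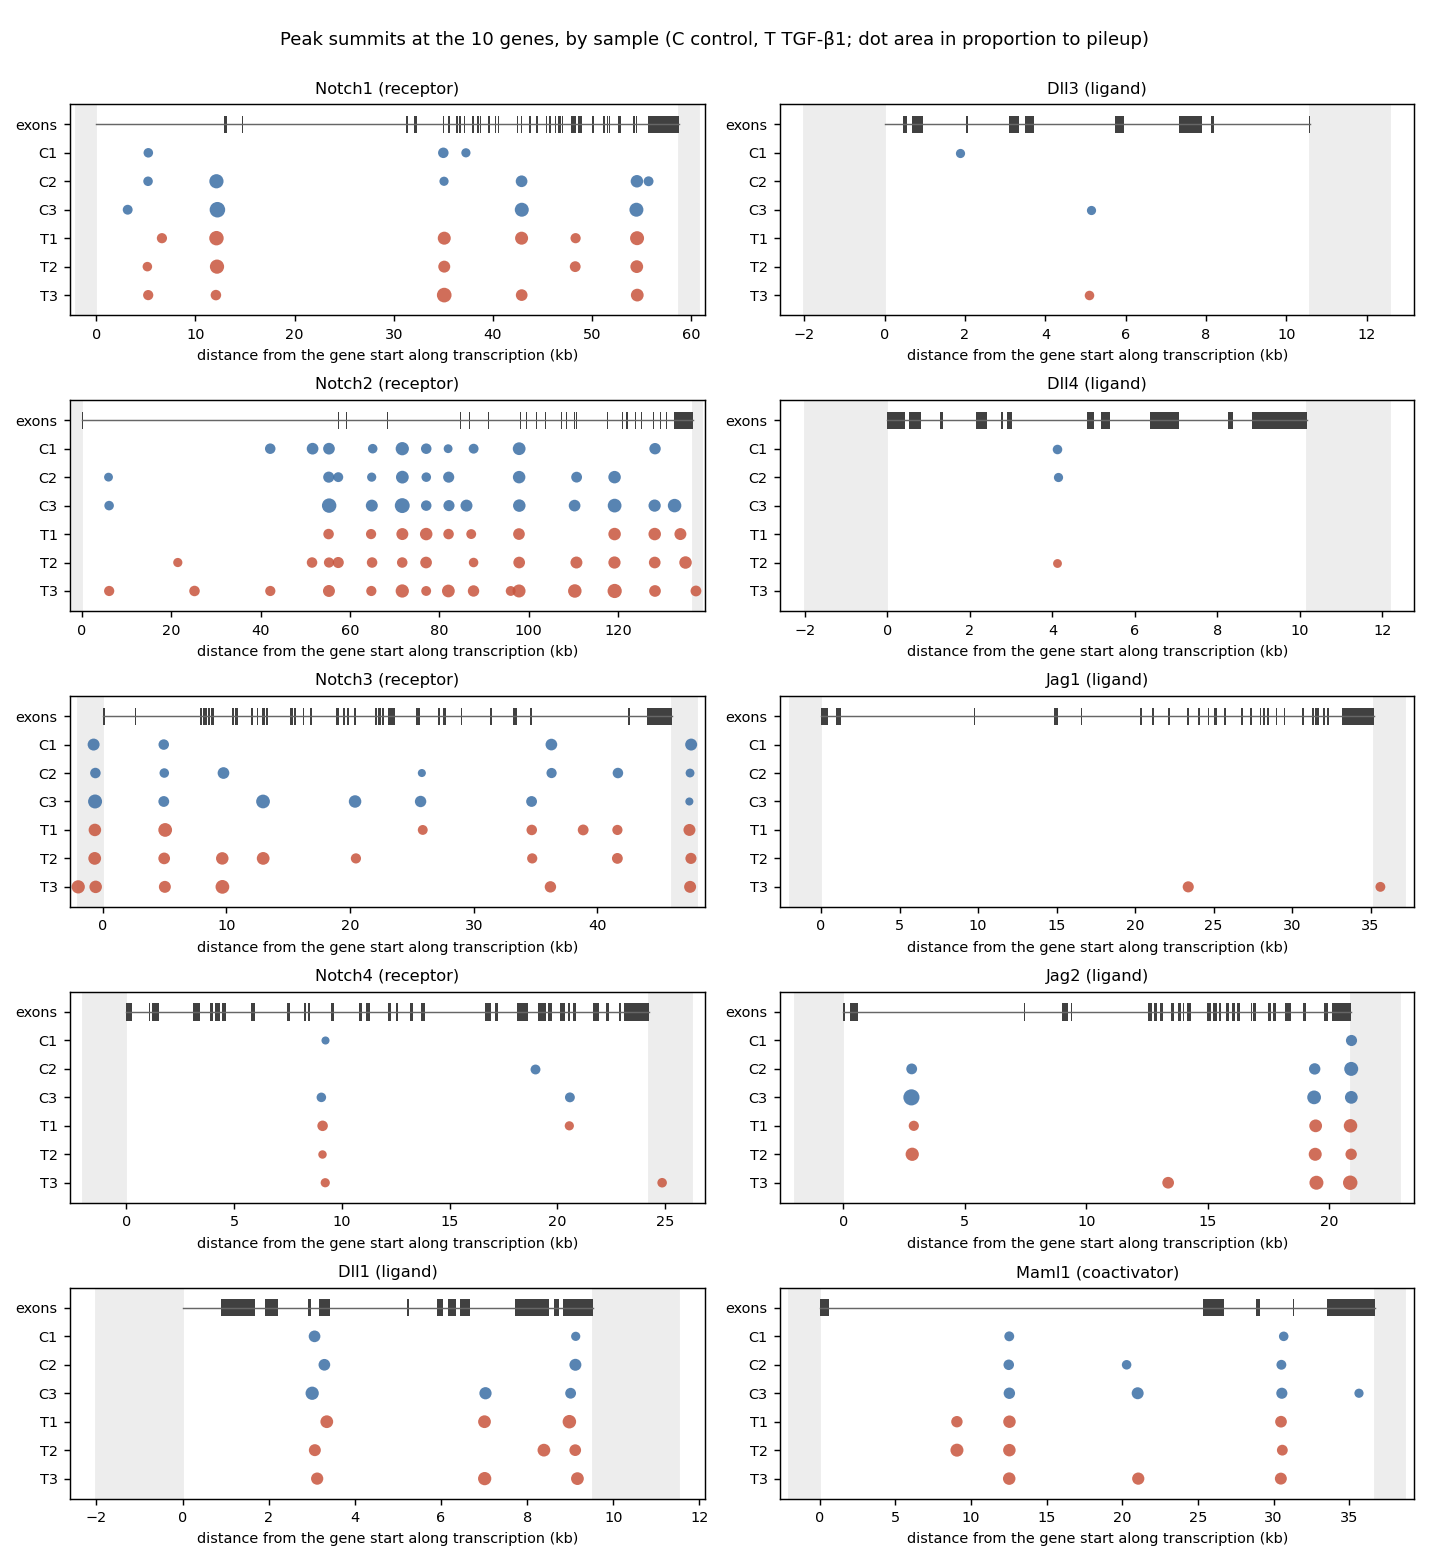
Summits of the peaks at each gene by sample (C, control, blue; T, TGF-β1, red), plotted by distance from the gene start along transcription in kb; dot area follows the pileup, dark boxes are exons and grey bands the 2 kb flanks. Most summits lie in introns, and columns of 6 dots, as at 5 places in Notch2, are regions called in all 6 samples.

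The exon or intron of each region was read at its highest summit over all coding transcripts, and exons and introns were numbered in the transcript with the longest coding sequence. Of the 69 regions, 46 lay in introns, 12 in coding exons (CDS), 5 in untranslated exons (UTR), 2 in the upstream flank and 4 in the downstream flank. Counted by the summit of each peak, introns held 20, 23 and 24 peaks without and 25, 27 and 29 with TGF-β1, every TGF-β1 sample being deeper. Per 1000000 reads these were 1.94, 2.44 and 2.09 without and 1.96, 2.14 and 2.18 with TGF-β1, which overlap. By the same count, coding exons held 1, 6 and 7 peaks in control and 4, 5 and 3 with TGF-β1, and control replicate 1 stood apart with 1. The median GC content of the peaks at the 10 genes was 49.6% in control replicate 1 and 52.0% in both other control samples, against 49.9% to 52.0% in TGF-β1-treated samples. Whether base composition has a part in the low CDS number of control replicate 1 was not tested.

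A peak was present in all 6 samples at 13 of the 69 regions (18.8%), against 24.5% of all regions of the series. Of the others, 9 were called in 5 samples, 3 in 4, 9 in 3, 12 in 2 and 23 in 1 (33.3%, against 27.3% in the series). The 13 shared regions were 9 in introns, 2 in UTRs and 1 in each flank, and 0 of the 12 CDS regions were called in all 6 samples. The share of CDS regions called in all 6 samples over the series was not counted. These classes follow the highest summit: the shared region at Dll1 intron 3 had its summit in coding exon 4 in control replicate 2 and TGF-β1 replicate 1. By role, 8 of 50 receptor regions, 3 of 13 ligand regions and 2 of 6 Maml1 regions were shared. Of the 9 regions called in 5 samples, the missing sample was control replicate 1 for 4, control replicates 2 and 3 for 2 each, and TGF-β1 replicate 2 for 1. The sample with the fewest peaks was thus the most often missing.

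Notch1 had no region called in all 6 samples, although it had 29 peaks in 10 regions. Its strongest region (chr2:26359645-26360279) had a pileup of 31 and 37 reads in control replicates 2 and 3 and of 32, 31 and 17 in the TGF-β1 replicates, with no peak in control replicate 1. It reached 11.3-fold enrichment over the local background and held 26 CpG in 635 bp. Intron 5 (chr2:26336916-26337328) had 17 and 13 reads in control replicates 1 and 2 and 26, 22 and 33 with TGF-β1, and no peak in control replicate 3. Intron 33 (chr2:26317442-26317856) had 24 and 30 in control replicates 2 and 3 and 30, 25 and 25 with TGF-β1. Exon 17 (chr2:26329089-26329452) was called in 4 samples, with 21 and 30 reads in control replicates 2 and 3 and 26 and 21 in TGF-β1 replicates 1 and 3. Of these 4 regions, only intron 5 had each TGF-β1 value above the control values that were called. These pileups were not divided by reads, and each TGF-β1-treated sample was deeper. The share of such regions over the series was not counted. Another region called in 4 samples (chr2:26366806-26367124) had 14 and 14 reads in control replicates 1 and 2 and 14 and 16 in TGF-β1 replicates 2 and 3.

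The summits nearest to a promoter were at Notch1 and Notch3. RefSeq promoters of all 10 genes (11 sequences of 300 bases, from 250 before to 50 after the start, GRCm38.p6 table) each matched NCBIM37 at a single place on the chromosome. The Notch1 region above had its nearest summit at -622 bp from the RefSeq start (minus for upstream), and was called in 5 samples. In vM1 the same place is an intron of longer Notch1 transcripts. The Notch3 region ahead of the start (chr17:32304173-32304726) had its nearest summit at -554 bp and was called in all 6 samples, with 22, 17 and 30 reads in control and 24, 25 and 24 with TGF-β1. No other of the 10 genes had a summit within 1 kb of a RefSeq start in any sample. Their nearest summits lay 1423 bp inside Dll3, 1961 bp inside Dll1, 2799 bp inside Jag2, 4114 bp inside Dll4 and 9072 bp inside Maml1, and upstream at -3025 bp for Jag1, -3216 bp for Notch4 and -4962 bp for Notch2. The share of all genes with a summit within 1 kb of a RefSeq start was not counted. By the vM1 gene start, 3.15% of all protein-coding genes had a summit within 1 kb in all 6 samples and 13.8% in any. Counted by that start, Notch3 was the 1 gene of the 10 with a summit within 1 kb.

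None of the 11 promoter sequences itself held a summit, and their CpG content differed between genes. Searched for the letters CG, the 300 bases held 63 CpG at Jag2, 41 at Notch2, 24 and 15 at the alternative Dll1 starts, 24 at Maml1, 22 at Jag1, 17 at Dll4, 11 at Dll3 and 5 at Notch4, beside 23 at Notch1 and 25 at Notch3. The median over 32544 distinct promoters of the same length was 7, 43.8% held 10 or more, and 94.6% held a CG. Notch4 was the only one of the 10 genes below that median.

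**Figure D3:**
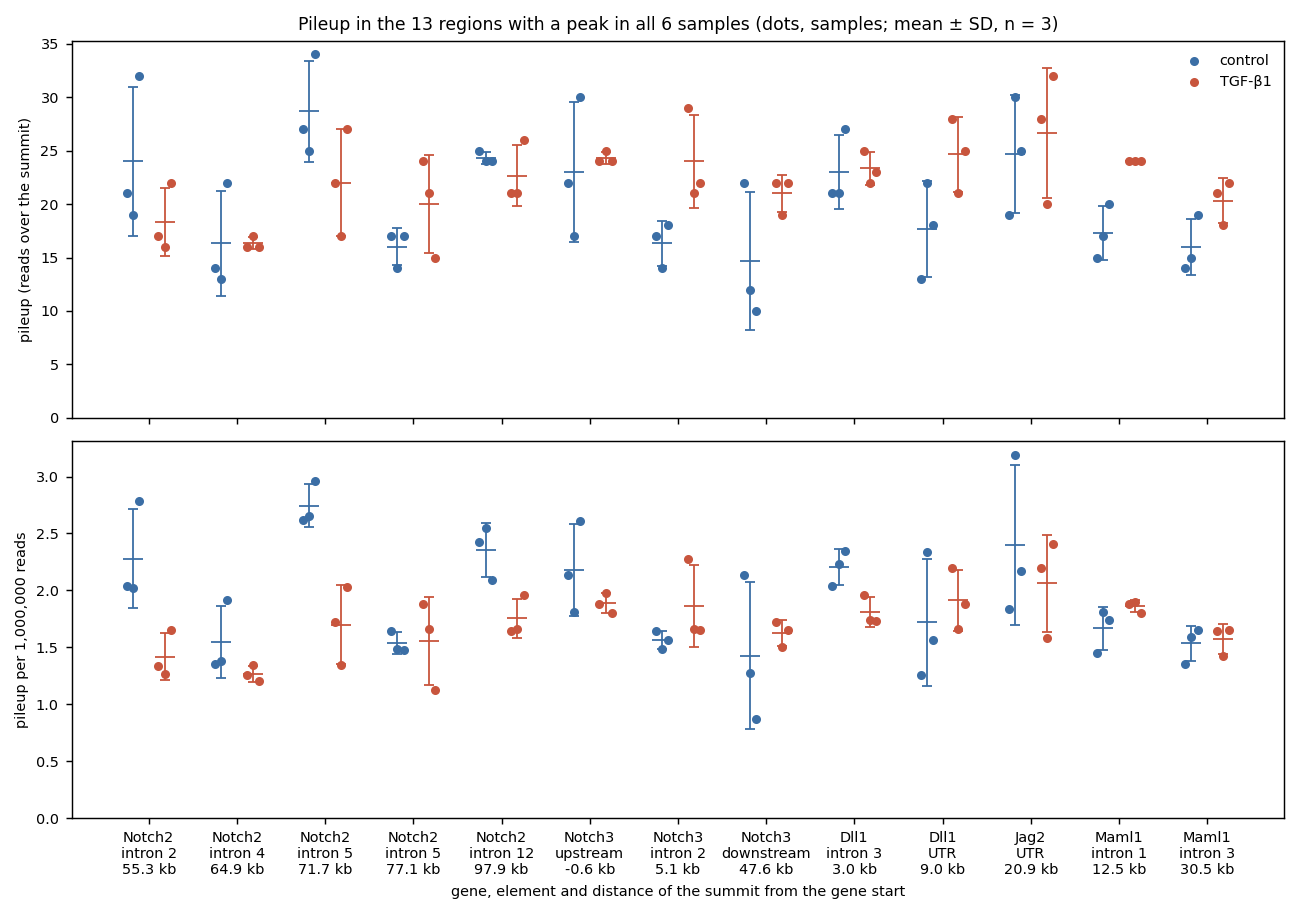
Pileup (reads over the summit, upper panel) and pileup per 1000000 reads (lower panel) in the 13 regions called in all 6 samples, one dot per sample, with mean and SD (n = 3 per group). Before division by reads TGF-β1 lies above control at Notch3 intron 2 and Maml1 intron 1; after division it lies above at Notch3 intron 2 alone and below at 4 Notch2 regions and Dll1 intron 3.

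At the 13 shared regions, none passed the thresholds for a change in pileup (limma, an adjusted p under 0.01 with an absolute log2 fold change over 2), nor did any of the 41744 shared regions of the series (0%). The log2 fold change, on the log2 pileup minus the median of its sample, was positive for 6 and negative for 7, from -0.62 to 0.38, with a median of -0.10 against -0.0047 over all shared regions. Each of the 13 had a Benjamini-Hochberg adjusted p of 0.999 in limma, and the smallest of the series was 0.677. Regions without a peak in some sample, among them all those of Notch1, Notch4, Dll3, Dll4 and Jag1, were not in this test. It therefore cannot detect the loss or gain of a peak. At an unadjusted limma p under 0.05, 2 of the 13 regions were lower with TGF-β1 and 0 were higher, while 2.22% of all shared regions were lower and 1.96% were higher. Both were Notch2 introns.

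Notch2 had 5 of the 13 shared regions. In intron 5 (chr3:97888971-97889429) the pileup was 27, 25 and 34 reads without and 22, 17 and 27 with TGF-β1, which overlap. Its log2 fold change was -0.62 (SE 0.211; limma, unadjusted p = 0.00633, adjusted p = 0.999). In intron 2 (chr3:97872501-97873026), the tandem repeat, the pileup was 21, 19 and 32 in control and 17, 16 and 22 with TGF-β1, with a log2 fold change of -0.59 (SE 0.218; limma, unadjusted p = 0.0112, adjusted p = 0.999). Intron 12 (chr3:97915063-97915583) had 25, 24 and 24 reads in control and 21, 21 and 26 with TGF-β1, and a log2 fold change of -0.33. Intron 4 (chr3:97882087-97882672) had 14, 13 and 22 in control and 16, 17 and 16 with TGF-β1. The second shared region of intron 5 (chr3:97894148-97894745) had 17, 14 and 17 in control and 24, 21 and 15 with TGF-β1, where the groups overlap through TGF-β1 replicate 3 alone. Over all its peaks, the mean pileup of Notch2 was 20.3 ± 2.99 reads (SD, n = 3) in control and 20.0 ± 1.03 with TGF-β1, and 1.95 ± 0.117 and 1.55 ± 0.0499 per 1000000 reads.

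Notch3 had 3 shared regions. In intron 2 (chr17:32298525-32299080) the pileup was 17, 14 and 18 reads in control and 29, 21 and 22 with TGF-β1, and the groups did not overlap. Over all shared regions, TGF-β1 lay above control in every sample for 14.6% and below for 0.309%. The log2 fold change was 0.33 (SE 0.217; limma, unadjusted p = 0.143, adjusted p = 0.999). Downstream of the gene (chr17:32256074-32256586) the pileup was 22, 12 and 10 in control and 22, 19 and 22 with TGF-β1, the largest positive log2 fold change of the 13 at 0.38. That region also lies in Gm17276, a lincRNA gene on the plus strand, and MeDIP-seq reads do not tell the strands apart. The region ahead of the start, given above, had a log2 fold change of -0.10. A further upstream region (chr17:32305630-32305992) was called in 5 samples, with 18 and 17 reads in control replicates 1 and 2 and 21, 21 and 27 with TGF-β1, but only the summit of TGF-β1 replicate 3 lay within the 2 kb flank and was counted at the gene.

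Among the ligands, Dll1 and Jag2 held the 3 shared regions. Dll1 intron 3 (chr17:15510284-15511011) had 21, 21 and 27 reads in control and 25, 22 and 23 with TGF-β1. The last exon of Dll1, in the UTR (chr17:15504434-15505043), had 13, 22 and 18 in control and 28, 21 and 25 with TGF-β1, where control replicate 2 lay above TGF-β1 replicate 2. The last exon of Jag2, also in the UTR (chr12:114146624-114147032), had 19, 30 and 25 in control and 28, 20 and 32 with TGF-β1. The highest pileup at any of the 10 genes was in Jag2 intron 2 (chr12:114164661-114165111), with 40 reads in control replicate 3, 18 in control replicate 2, 16 and 27 in TGF-β1 replicates 1 and 2 and no peak in the remaining samples. Peaks of Dll3, Dll4 and Jag1 had 12 to 19 reads, each below the median over all peaks of its sample (19 to 23 reads).

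Maml1 had 2 shared regions. In intron 1 (chr11:50093110-50093559) the pileup was 15, 17 and 20 reads in control and 24, 24 and 24 with TGF-β1, which do not overlap. The log2 fold change was 0.26 (SE 0.210; limma, unadjusted p = 0.230, adjusted p = 0.999). In intron 3 (chr11:50075020-50075548) the pileup was 14, 15 and 19 in control and 21, 18 and 22 with TGF-β1. Over all its peaks the mean pileup of Maml1 was 16.1 ± 2.11 reads (SD, n = 3) in control and 22.4 ± 0.694 with TGF-β1, and 1.55 ± 0.124 and 1.74 ± 0.0482 per 1000000 reads. The peaks behind these means are not the same in each sample. All 6 Maml1 regions also lie in Gm16641, a lincRNA gene on the plus strand.

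Division by reads changed which shared regions kept their groups apart. Each TGF-β1-treated sample was then below each control sample at 5 of the 13 regions (Notch2 introns 2, 4, 5 and 12, and Dll1 intron 3) and above at Notch3 intron 2, against 10.4% below and 1.97% above over all shared regions. Notch2 intron 5 had 2.62, 2.66 and 2.96 reads per 1000000 in control and 1.73, 1.35 and 2.03 with TGF-β1. Dll1 intron 3 had 2.03, 2.23 and 2.35 in control and 1.96, 1.74 and 1.73 with TGF-β1. Notch3 intron 2 had 1.65, 1.49 and 1.57 in control and 2.27, 1.66 and 1.66 with TGF-β1, so that control replicate 1 and TGF-β1 replicates 2 and 3 were nearly level. Maml1 intron 1 had 1.45, 1.81 and 1.74 in control and 1.88, 1.90 and 1.81 with TGF-β1, and the groups overlapped.

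No region of the 10 genes was called in all 3 samples of a group and in none of the other, whereas 0.948% of the regions of the series were called in TGF-β1 alone and 0.233% in control alone by that rule. Closest were Notch1 exon 25 (chr2:26323647-26324147), with 16 and 18 reads in TGF-β1 replicates 1 and 2 and no peak elsewhere, and Maml1 intron 1 (chr11:50096584-50096946), with 20 and 26 reads in the same replicates. Without TGF-β1 replicate 3, these 2 regions met the rule, which follows from the samples they were called in. The share of all regions of the series called in these 2 TGF-β1 replicates and no control sample was not counted. No region was called in 2 control samples alone. Of the 23 regions called in 1 sample, 9 were in a control sample and 14 in a TGF-β1-treated sample, 7 of them in TGF-β1 replicate 3, the deepest sample. How regions of the series called in 1 sample, or in 2 control samples alone, were divided was not counted.

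When regions with peaks in 3 or more samples were tested, with a missing peak set to the lowest pileup called in that sample, 34 of them belonged to the 10 genes and 2 had an unadjusted limma p under 0.05, against 4.16% of the 98681 such regions of the series. The first was Notch2 intron 5 (limma, unadjusted p = 0.0203, adjusted p = 0.972). The other was Notch1 intron 5 (limma, unadjusted p = 0.0462, adjusted p = 0.972), while the Notch2 intron 2 region was no longer below 0.05 (limma, unadjusted p = 0.0626, adjusted p = 0.972). The log2 fold change at Notch1 was 0.92 and rests in part on the value set for control replicate 3.

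**Figure D4:**
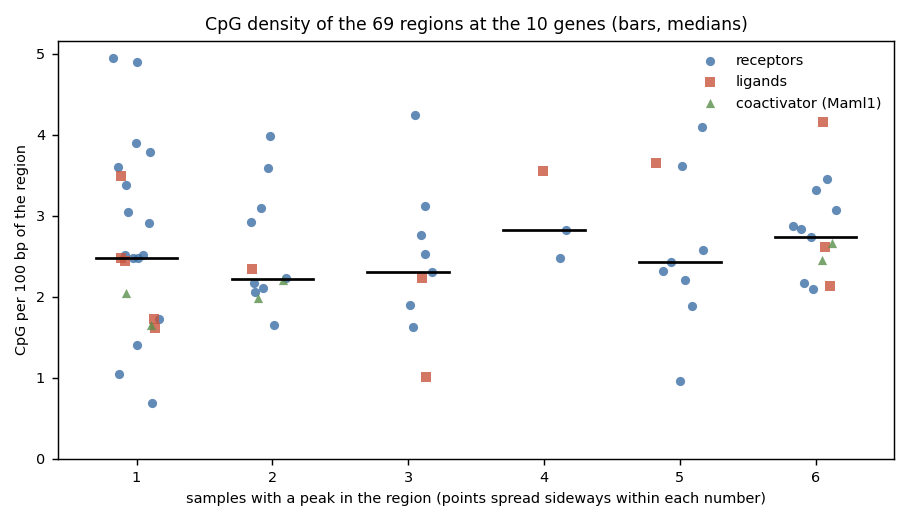
CpG per 100 bp in each of the 69 regions against the number of samples with a peak there, with receptors, ligands and Maml1 in different symbols and the median of each column as a bar. The medians lie between 2 and 3 CpG per 100 bp in each column, and regions called in 1 sample spread from 0.687 to 4.95.

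CpG content is a property of the reference sequence under each region. Regions called in all 6 samples had a median of 2.73 CpG per 100 bp, those called in 2 to 5 samples 2.34 and those called in 1 sample 2.48. Over the whole series, the medians were 2.61, 2.35 and 2.13. The 12 CDS regions had a median of 3.01 and the 46 intron regions 2.47. Notch1 exon 34, in the coding part, had 4.95 and was called in control replicate 2 alone, while Notch4 intron 11 had 0.962 and was called in 5 samples. Over the whole gene, CpG density was 3.14 per 100 bp in both Dll1 and Jag2, 1.63 in Notch1, 1.35 in Notch2, 1.61 in Notch3, 1.87 in Notch4, 2.78 in Dll3, 2.29 in Dll4, 1.60 in Jag1 and 1.27 in Maml1. Dll1 and Jag2 thus joined the highest CpG density to a high peak density, while Dll3 and Dll4 had few peaks at a CpG density above that of each receptor. Notch3, at 1.61 CpG per 100 bp, had more peaks per 10 kb (1.30) than Jag2 (1.07).

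The other genes of the pathway were 48 genes of ligand processing, γ-secretase, the nuclear complex, its targets and regulators, of which 43 had a peak. No peak was called in any sample at the target genes Hes1 and Hey1, the protease gene Adam10 and the γ-secretase subunit genes Aph1b and Aph1c, while 25.4% of all protein-coding genes had none. The mean number of peaks was higher with TGF-β1 at 26 genes, lower at 12 and equal at 5 of the 43 genes, that is, higher at 60.5% and lower at 27.9%, against the 55.6% and 22.0% of all genes with a peak. Each TGF-β1-treated sample lay above each control sample at 3 of the 43 genes and below at 0, beside the 3.87% and 0.348% of all genes. At Ep300, which encodes a histone acetyltransferase recruited by Mastermind-like proteins, there were 2, 1 and 1 peaks in control and 3, 3 and 4 with TGF-β1. At Ncstn, which encodes the γ-secretase subunit nicastrin, there were 1, 1 and 2 in control and 3, 4 and 3 with TGF-β1. At Numb, an inhibitor of Notch, there were 3, 5 and 5 in control and 9, 8 and 6 with TGF-β1. Each of the 3 had p = 0.1 in the exact two-sided permutation test, the smallest that the design allows. Divided by reads, Ep300 and Ncstn remained above, 4.65% of the 43 genes against 1.77% of all genes, and Numb overlapped. Another 6 of the 43 genes lay below, against 15.7% of all genes, and a gene with the same number of peaks in each sample falls there through depth alone.

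Most peaks were found at Maml3, a paralogue of Maml1, with 36, 35 and 34 in control and 39, 30 and 43 with TGF-β1. The acetyltransferase gene Kat2b had 62 peaks over the 6 samples, Neurl1a 43 and Rbpj 41. At these genes the groups overlapped.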

How the data were processed

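MeDIP-seq peak lists of 3 control and 3 TGF-β1-treated samples of mouse primary mesangial cells were used, grouped and numbered by their labels. The authors mapped reads to mm9 with BWA, kept uniquely mapped reads once per start position and called narrow peaks in each sample with MACS2 2.1.0.20150731 (q cutoff 0.01, no input, regional background of 10000 bp). The deposited pileup is a signal, in extended reads and not scaled to depth, the deposited fold enrichment is its ratio to the local background, and p and q were deposited as −log10 values. The lists leave out regions under the threshold, so the study's test on read counts was not run. The lowest pileup called was 8 reads in the control and 9 to 10 in the TGF-β1-treated samples, which limits what could be detected.

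Peaks were assigned by summit with GENCODE vM1. The annotation and NCBIM37 match mm9: no peak lay past a chromosome end, and 0.519% of peaks were on unplaced sequence. log2 of the highest pileup per region, centred on each sample's median, was tested with limma 3.58.1 in R 4.3.3 (lmFit, then trended eBayes) and Benjamini-Hochberg adjustment over all 41744 regions called in all 6 samples, after the script was tested on simulated data. For single genes, a two-sided exact permutation test used all 20 ways to place the samples. Counts and sequences were computed with Python 3.11.15. The 10 genes, the pathway list and the tests were chosen with earlier results of these data known. All 10 genes were named. Regions named were those called in all 6 samples, those called in 1 group alone and the 3 smallest limma p in each direction. Of the pathway list, the 5 genes with the most peaks and those whose groups did not overlap were named, and some items are not reported here. Other regions, genes without a peak and the shared run of bases were added after their values were seen. Alternatives were a fold enrichment or a −log10 q from 5 upwards, division by reads, any overlap, flanks of 0 or 5 kb, joining up to 200 bp, regions in at least 3 samples, each sample left out, and a replicate block.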

Additional observations from a re-analysis of the deposited data

How the results depend on the processing

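The labels do not say whether same-numbered samples were handled together. Deviations from the group means over the shared regions correlated by -0.130 to 0.0432 between same-numbered samples (3 pairs). Their mean was -0.0445, against 0.0223 between samples of different number, and 3 pairs are too few to settle whether the samples were paired. Each group has 1 sample of each number, so a replicate block cannot change a difference of means. The difference of 5.67 summed peaks and the log2 fold changes are thus unchanged by design. With the block, limma gave the same 2 regions with an unadjusted p under 0.05, and 0 of the 13 regions passed the thresholds. Of the summed peaks, 12 of 13 alternatives kept the direction, and division by 1000000 reads reversed it to -0.153. The 12 include the block, which could not do otherwise. Leaving out 1 sample gave 2.5 to 8 more peaks with TGF-β1. Division by reads also turned the differences at Notch1 (-0.0113), Notch2 (-0.0447) and Notch3 (-0.0357), and a fold enrichment of at least 5 that at Notch4 (-0.667). For the 9 genes with a difference, 107 of 117 values kept their direction, 6 were 0 and 4 reversed. The 107 include the block value of each gene, which was fixed in the same way. Maml1, with a difference of 0, stayed at 0 in 10 of 13 alternatives, the block among them, and otherwise lay between -0.5 and 0.5.

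At a fold enrichment of at least 5, the regions called in all 6 samples fell from 13 to 4, and 1 region (Notch2, chr3:97872501-97873001, in the tandem repeat) was called in all control and no TGF-β1-treated samples. Its fold enrichment was 5.76, 5.52 and 7.59 in control and 4.04, 4.51 and 4.64 with TGF-β1. The TGF-β1 peaks were thus present but under this cutoff. The share of regions of the series that met the rule at this cutoff was not counted. Leaving out 1 sample gave 13 to 17 regions called in all the remaining ones, and 0 to 2 regions called in TGF-β1 alone, with 2 without TGF-β1 replicate 3. The number of regions with an unadjusted limma p under 0.05 was 1 without control replicate 3 and up to 3 without control replicate 1 or 2. The log2 fold change changed sign at the second shared region of Notch2 intron 5 when divided by reads (-0.013), and leaving out 1 sample gave -0.075 (without TGF-β1 replicate 1) to 0.31. It also changed sign at the Notch3 region ahead of the start, where leaving out 1 sample gave -0.26 to 0.032 (without control replicate 3), and at the Jag2 UTR, where it gave -0.25 to 0.080 (without control replicate 2). Division by reads shifted the log2 fold changes by -0.091. The causes were not tested.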
